A study of Mus musculus with 10 samples.

Results

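The smooth muscle genes of the gut wall described here were 10 genes, taken by symbol from the 24062 symbols counted in each library: Myh11, Acta2, Actg2, Tagln, Cnn1, Des, Lmod1, Synpo2, Mylk and Smtn. They were measured by RNA sequencing of the jejunum, a part of the small intestine, in C57BL/6 mice at postnatal day 5. There were 5 libraries of wild-type (WT) mice and 5 of KSR23 mice. KSR23 mice carry the R23 allele, an interleukin-23 (IL-23) cassette of the p19 and p40 subunits in the ROSA26 locus behind a floxed STOP signal, and a cre recombinase under the keratin 14 (K14) promoter, so that the cassette was directed to keratinocytes and not to muscle. The study describes its controls as littermates, and the whole organ piece was homogenized, so the muscle layers, mucosa, nerves and vessels entered the same RNA. All 10 genes were found in every library, and the lowest count of any of them was 157 reads.

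The wall of the small intestine has an inner circular and an outer longitudinal layer of smooth muscle, a thin muscle layer under the mucosa, and strands of smooth muscle that run up into the villi. Smooth muscle shortens when calcium, bound to calmodulin, activates myosin light chain kinase, which phosphorylates the light chains of smooth muscle myosin and lets the myosin pull on actin filaments. The actin genes, the myosin heavy chain and many of their partners share control by serum response factor (SRF) and its cofactor myocardin, which act through a promoter motif known as the CArG box. Acta2 is also made by pericytes, by myofibroblasts and by the smooth muscle of blood vessels, while Actg2 is the actin typical of visceral muscle.

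Depth and the behaviour of the libraries bear on each value. Libraries held 25.5 to 32.0 M counts in genes in WT and 31.2 to 60.9 M in KSR23 (M, 1000000). Of the genes of the IL-23 subunits, Il12b, which encodes p40, had 0 to 5 counts in WT and 9 to 40 in KSR23 (log2 fold change 2.32, adjusted p = 0.00364), and Il23a, which encodes p19, had 1 to 14 and 8 to 34 counts (adjusted p = 0.270). Counts by symbol do not separate transcripts of the cassette from those of the mouse's own genes. Replicates 4 and 5 of both groups stood apart. Over 9737 genes with a mean of at least 5 CPM (reads per 1 M counted in genes, after TMM scaling of the totals), each of these 4 libraries was the highest or lowest of its group at 8.53 to 18.4% of genes, against 45.7 to 75.6% for replicates 1 to 3. Their profiles thus lay between those of the other libraries of their group, so the calls were also made on replicates 1 to 3 alone. The study calls the 5 libraries of a group biological replicates, and the labels do not name the animals. Whether replicates 4 and 5 hold RNA of the same animals as replicates 1 to 3 was not tested. If they do, every SD, SE and p-value at n = 5 counts more independent samples than there were.

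Of the 10 smooth muscle genes, 1 was called lower in KSR23 than in WT, none was called higher, and 9 did not pass the test (edgeR likelihood ratio test, adjusted p under 0.05). Across all 17632 genes tested, 18.5% were called, 9.73% higher and 8.76% lower in KSR23. The called gene was Acta2, which encodes smooth muscle alpha-actin. The median log2 fold change of the 10 genes (KSR23 over WT) was -0.22, against 0.03 for all genes tested. The fitted change was below 0 for 7 genes and above 0 for 3. The quasi-likelihood test of the same tool called 0 of the 10, with 4 at an unadjusted p under 0.05, where it called 15.4% of all genes (8.47% higher and 6.91% lower). DESeq2 called 1 of the 10, Acta2, where it called 20.7% of all genes (10.7% higher and 9.95% lower). With replicates 4 and 5 left out, the likelihood ratio test found 0 of the 10, with 0 at an unadjusted p under 0.05, and 3.36% of 17243 genes (2.01% higher and 1.35% lower). There the changes of Actg2, Tagln, Cnn1 and Mylk were -0.07, -0.40, -0.46 and -0.30, with adjusted p from 0.81 to 0.98.

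Acta2 had the highest mean of the 10 genes per kilobase of merged exon, with a range that overlapped that of Actg2. The WT libraries, given here and later in the order of replicates 1 to 5, held 1877, 806, 1080, 1269 and 1734 CPM. The KSR23 libraries held 829, 724, 897, 737 and 787 CPM. Every KSR23 library lay below the WT mean of 1353 ± 448 CPM (SD, n = 5), but WT replicate 2, at 806 CPM, lay within the KSR23 range. The KSR23 mean was 795 ± 70.7 CPM (SD, n = 5), which made a log2 fold change of -0.77 ± 0.28 (SE), or 1.70-fold lower, with adjusted p = 0.0351. The call was lost with the quasi-likelihood test (adjusted p = 0.0538), on replicates 1 to 3 (log2 fold change -0.58, adjusted p = 0.717) and when any 1 of 7 libraries was left out. These 7 were WT replicates 1, 4 and 5 and KSR23 replicates 1, 2, 4 and 5, and the adjusted p over the 10 omissions ran from 0.0113 to 0.135.

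Because Acta2 was the gene called, CArG-like stretches near its start are shown. The gene lies on chromosome 19 at 34241090 to 34255590 (mm10, minus strand, GENCODE M21), with 10 merged exons. The start that RefSeq gives lies further inside, so that of the 250 bases before it (GRCm38.p6, chr19:34255374-34255623, minus strand) 217 are inside the gene as GENCODE draws it. Each stretch is printed with 10 bases on either side, and capitals mark the match.
Acta2 stretch 1 (chr19:34255438-34255467): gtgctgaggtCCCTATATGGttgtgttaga
Acta2 stretch 2 (chr19:34255388-34255417): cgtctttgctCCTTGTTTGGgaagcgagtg
They lie 84 to 75 and 34 to 25 bases before the RefSeq start and match the CArG box when 1 of the 6 core bases may be G or C, a looser form chosen after this promoter was read. Promoter windows were matched for 7 of the 10 genes (Acta2, Cnn1, Des, Lmod1, Synpo2, Mylk and Smtn). The strict CArG box occurred in 0 of these 7 windows and in 1.47% of 32851 promoters, and the looser form in 1 of the 7 and in 8.59% of all promoters, on either strand. A match of letters is a description and shows no binding.

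The other actin of the set, Actg2 (smooth muscle gamma-actin), is the one typical of the gut wall. It measured 1004, 315, 488, 638 and 918 CPM in the WT libraries and 618, 432, 625, 526 and 505 CPM in the KSR23 libraries. All 5 KSR23 values lay inside the WT range, and the log2 fold change of -0.31 ± 0.33 (SE) did not pass the test (adjusted p = 0.562). The 95% interval of this change, -0.95 to 0.32, includes the -0.77 of Acta2. It does not measure the difference between these actins, whose ratio within each library is given below.

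Myh11 encodes the smooth muscle myosin heavy chain, the motor protein of the contractile apparatus. Its WT levels were 325, 171, 122, 241 and 294 CPM and its KSR23 levels 368, 297, 390, 351 and 357 CPM. In 4 of the 5 KSR23 libraries it lay above the highest WT library, opposite in sign to Acta2, with KSR23 replicate 2 inside the WT range. The log2 fold change was 0.61 ± 0.30 (SE) and did not pass the test (adjusted p = 0.142). Replicates 1 to 3 gave 0.81 with adjusted p = 0.561. Mylk, which encodes the kinase that switches myosin on, measured 607, 393, 318, 487 and 576 CPM in WT and 398, 248, 396, 353 and 308 CPM in KSR23. For Mylk 2 KSR23 libraries lay below the lowest WT library, and the fitted log2 change of -0.48 ± 0.27 (SE) had an adjusted p of 0.215.

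Tagln and Cnn1 encode transgelin and calponin 1, small actin-binding proteins that mark differentiated smooth muscle. Tagln measured 223, 122, 128, 170 and 200 CPM in WT and 129, 99.8, 122, 110 and 108 CPM in KSR23. For this gene 4 of the 5 KSR23 libraries lay below the lowest WT library, though KSR23 replicate 3 (121.55 CPM) all but tied with WT replicate 2 (121.56 CPM). The log2 fold change of Tagln, -0.57 ± 0.26 (SE), did not pass the test (adjusted p = 0.114). Of the merged exons of Tagln, 67.9% overlap exons of Pcsk7 and of an antisense gene on the opposite strand, and since no source used here says whether strand was used in counting, reads of these genes cannot be told apart. Cnn1 measured 215, 100, 135, 148 and 193 CPM in WT and 140, 86.2, 92.4, 124 and 85.3 CPM in KSR23. The log2 fold change of Cnn1 was -0.58 ± 0.29 (SE, adjusted p = 0.155), with 3 KSR23 libraries below the WT range.

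Des and Smtn behaved otherwise. Des encodes desmin, the intermediate filament protein of muscle, and Smtn encodes smoothelin, a protein bound to the actin filaments of contractile smooth muscle. Des measured 20.8, 98.9, 105, 65.9 and 33.8 CPM in WT and 186, 42.4, 12.7, 107 and 21.2 CPM in KSR23, so that the highest KSR23 library was 14.6 times the lowest. Smtn measured 22.9, 70.3, 62.4, 45.3 and 25.04 CPM in WT and 85.8, 89.1, 10.3, 76.5 and 40.8 CPM in KSR23. For both genes KSR23 replicate 3 was the lowest library of all 10. The fitted changes, 0.19 ± 0.66 for Des and 0.42 ± 0.52 for Smtn (log2, SE), were smaller than their errors, with adjusted p = 0.889 and 0.638. The 95% interval for Des ran from -1.11 to 1.48, so a change of either sign by more than 2-fold was not resolved for this gene.

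Lmod1 and Synpo2 were the least abundant. Lmod1 encodes leiomodin 1, which starts new actin filaments, and Synpo2 encodes synaptopodin 2, an actin-binding protein of the Z-disc and of dense bodies. Lmod1 measured 7.96, 5.55, 5.91, 6.05 and 10.8 CPM in WT and 5.79, 6.67, 7.12, 5.26 and 8.44 CPM in KSR23. Synpo2 measured 36.7, 21.5, 13.8, 24.1 and 25.6 CPM in WT and 28.1, 17.1, 25.8, 22.9 and 24.5 CPM in KSR23. The groups overlapped widely for both, with log2 fold changes of -0.12 ± 0.31 and -0.04 ± 0.32 (SE, adjusted p = 0.836 and 0.954). The 95% intervals, -0.73 to 0.48 for Lmod1 and -0.66 to 0.58 for Synpo2, bound the changes that these libraries leave possible. None of the 10 genes separated the groups without overlap, against 14.4% of all genes tested (7.41% higher and 6.99% lower in KSR23).

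**Figure D1:**
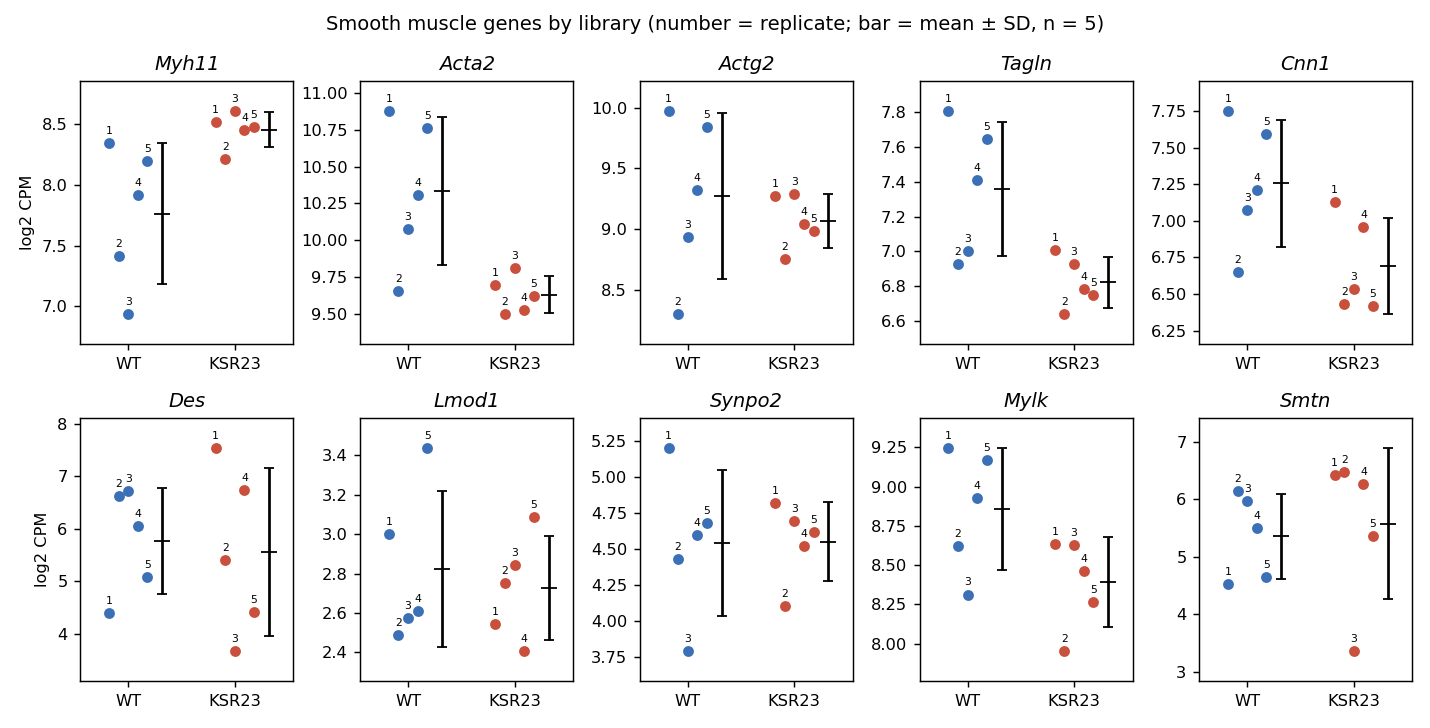
Level of each smooth muscle gene (log2 CPM, a separate axis for each gene) in the 5 WT and 5 KSR23 libraries, with the replicate number at each point and the mean ± SD (n = 5) at the right of each group. Acta2 in KSR23 lies between 724 and 897 CPM and overlaps WT replicate 2, while Des and Smtn spread widely in KSR23.

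Per kilobase of merged exon, the order in WT ran Acta2 (616 CPM per kb), Actg2 (432), Tagln (84.9), Cnn1 (57.9), Mylk (42.3), Myh11 (30.3), Des (17.3), Smtn (10.3), Synpo2 (1.86) and Lmod1 (1.84). In KSR23 the order was the same except that Myh11 (46.4 CPM per kb) stood above Cnn1 (38.6) and Mylk (30.2). Per kilobase of the longest transcript, Acta2 (665) stood above Actg2 (505) in WT but below it in KSR23 (390.5 and 406). Neighbours in the first order had separate ranges only between Actg2 and Tagln and between Smtn and Synpo2, in both groups. Of the counts of each library, the set as a whole took 0.457, 0.233, 0.219, 0.336 and 0.409% in WT. In KSR23 it took 0.321, 0.203, 0.205, 0.265 and 0.194%. The WT share averaged 0.331 ± 0.105% and the KSR23 share 0.238 ± 0.0545% (SD, n = 5 each), and the ranges overlapped. In bulk tissue, fewer smooth muscle cells and less of these RNAs per cell cannot be told apart.

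The balance between the genes was followed as ratios within a library, which do not depend on its scaling. Acta2 made up 38.3 to 43.9% of the counts of the set in WT and 29.7 to 35.4% in KSR23. The ratio of Myh11 to Acta2 (CPM over CPM) was 0.173, 0.212, 0.113, 0.190 and 0.169 in WT and 0.444, 0.411, 0.435, 0.476 and 0.454 in KSR23. The ratio of Actg2 to Acta2 was 0.535, 0.391, 0.452, 0.503 and 0.529 in WT and 0.745, 0.596, 0.697, 0.713 and 0.642 in KSR23. Both ratios separated the groups without overlap. Such separation was common, however: 10 of the 45 pairs among the 10 genes did not overlap (22.2%), 7 of them with Myh11, against 21.7% of all pairs of genes with a mean of at least 5 CPM. The share among the smooth muscle genes was thus near that of any pair of genes in these libraries.

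Transcript length moved with the group difference over all genes, and its values stand beside those of the members. Over 9328 genes the log2 fold change rose with log2 transcript length (Pearson r = 0.278, Spearman rho = 0.378, across genes, which are not independent replicates). The median log2 fold change was -0.60 for 512 genes under 1000 bases, -0.23 for those of 1000 to 2000 bases, 0.21 for 2000 to 4000 bases and 0.38 for those over 4000 bases. The longest transcripts of Actg2 (1333 bases), Tagln (1595), Acta2 (2035) and Cnn1 (2381) were the shortest of the set, and all 4 had fitted changes below 0. Of these, Actg2 and Tagln lay below the median of their class but on the same side of 0, while Acta2 and Cnn1 lay opposite in sign to theirs. Acta2, at 2035 bases, lay close to the edge of 2000 bases, below which the class median was -0.23. Myh11 (6549 bases) had a fitted change above the median of its length class, whereas Mylk (7824) and Synpo2 (9203) lay below it. With offsets for GC content and length in the fit, Acta2 had a log2 fold change of -0.75 and was no longer called (adjusted p = 0.0943). Myh11 came to 0.18 (adjusted p = 0.776), Tagln to -0.39 (adjusted p = 0.434) and Cnn1 to -0.71 (adjusted p = 0.121). In that fit Mylk was the gene called lower, at -0.88 (adjusted p = 0.0230), where 15.5% of 15608 genes were called (7.23% higher and 8.28% lower). Whether length or the tissue set the direction of a single gene was not tested.

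**Figure D2:**
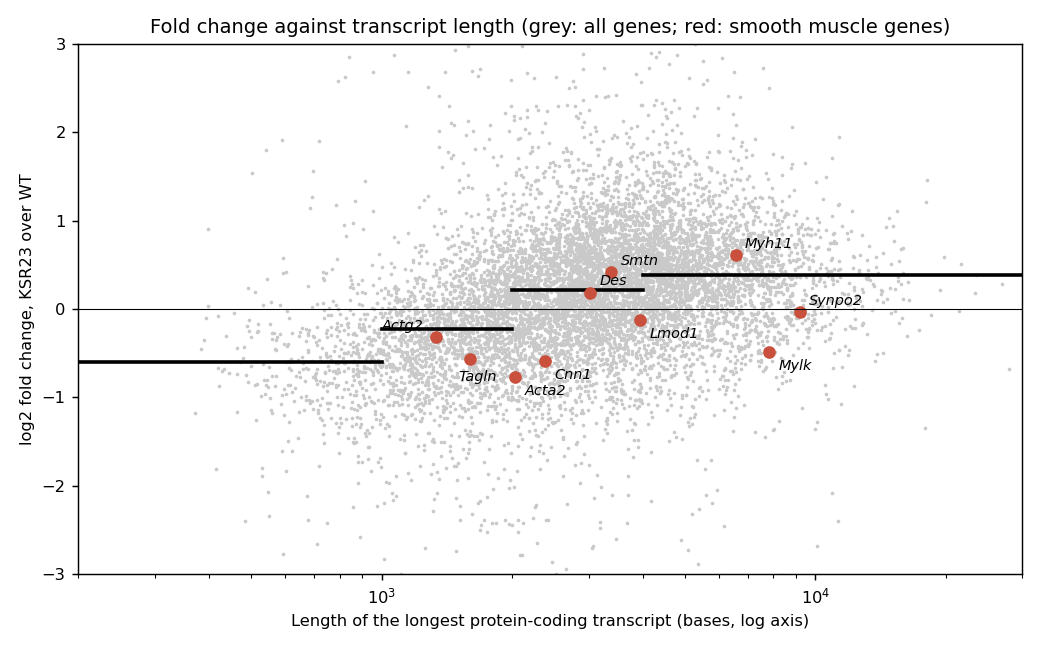
Log2 fold change (KSR23 over WT) against the length of the longest transcript (bases, log axis) for 9328 genes in grey and the 10 smooth muscle genes in red. Black lines are the medians of the length classes, from -0.60 under 1000 bases to 0.38 over 4000 bases, and genes beyond ±3 are not drawn.

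The smooth muscle genes spread more than most genes among the WT libraries and less among the KSR23 libraries. In WT the SD of log2 CPM over the 5 libraries had a median of 0.503 over the 10 genes, against 0.336 over all 9737 genes, and in KSR23 it was 0.268 against 0.489. The SD was smaller in KSR23 for 8 of the 10 genes (80%) and for 24.7% of all genes. For Acta2 it went from 0.50 in WT, the 69.7th percentile of all genes, to 0.13 in KSR23, the 1.25th percentile. Myh11 went from 0.58 to 0.15 and Tagln from 0.39 to 0.15. The exceptions were Des, with 1.01 in WT and 1.60 in KSR23, and Smtn, with 0.74 and 1.32. No test was made of these SDs, and replicates 4 and 5, which lay within the others' range at most genes, enter them in both groups.

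The order of the libraries was compared between members. The correlation of a member with the mean of the other 9 ran from -0.19 (Smtn) to 0.82 (Cnn1) and was below 0 for Smtn, Des and Lmod1. Replicate 1 was the highest WT library for 7 of the 10 genes and the lowest for 2, and replicate 2 was the lowest for 5. Over all 9737 genes WT replicates 1 and 2 were the highest or lowest of their group at 67.1% and 51.2%. In KSR23, replicate 1 was highest for 5 genes and replicate 2 lowest for 6. Over the 10 libraries, after the mean of each group was removed, Acta2 and Actg2 moved most closely together (r = 0.985), followed by Actg2 with Tagln (r = 0.963) and Acta2 with Tagln (r = 0.946). Myh11 with Tagln, Synpo2 and Mylk had r of 0.910 to 0.913, and Synpo2 with Mylk 0.917. Des and Smtn moved with each other (r = 0.848) and against Acta2 (r = -0.557 and -0.631). These are descriptions over 10 libraries that share their group means.

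Des and Smtn had the highest GC content of the set, 56.5% and 60.1%, where the other 8 genes had 47.8 to 53.6%. Libraries also differed in how expression followed GC content. The correlation across 9328 genes of a library's deviation with GC content was negative in WT replicates 1 and 5 (-0.246 and -0.152) and KSR23 replicates 3 and 5 (-0.316 and -0.194), and positive in the other 6 libraries (0.108 to 0.261). Those 4 libraries were the 4 lowest for Des. For Smtn, WT replicates 1 and 5 were the lowest of their group, as KSR23 replicates 3 and 5 were of theirs. The part of GC content in these values was not tested beyond the fit with offsets, in which the changes of Des and Smtn were -0.17 and -0.04.

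**Figure D3:**
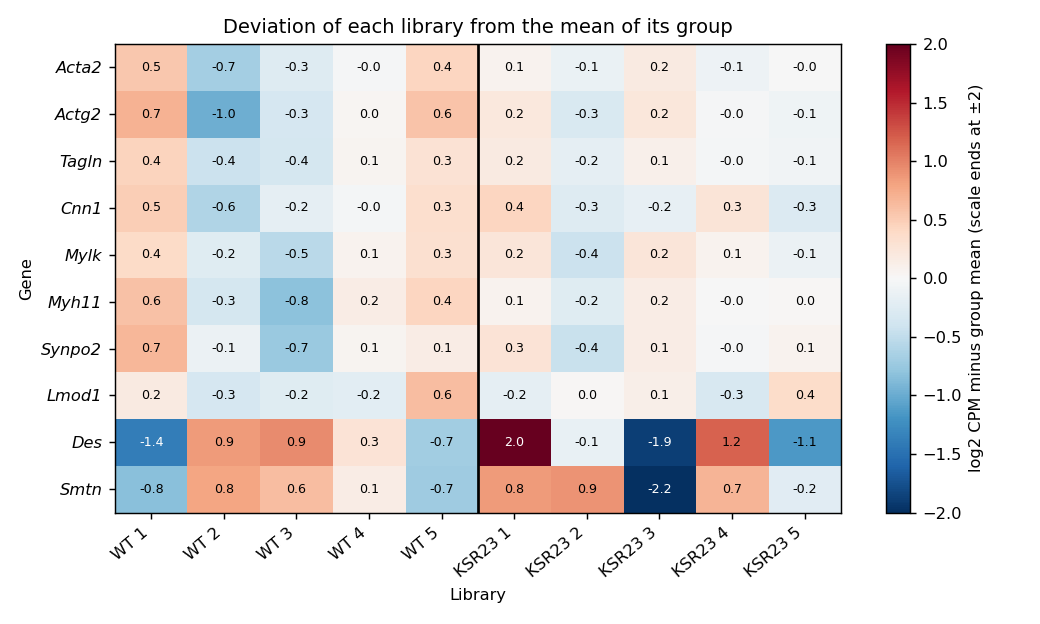
Deviation of each library from the mean of its group (log2 CPM, colour and printed value) for the 10 smooth muscle genes, with WT at the left and KSR23 at the right of the line. WT replicates 1 and 5 lie above the mean for Acta2, Actg2, Tagln, Cnn1, Mylk and Myh11 and below it for Des and Smtn, and the deviations of the actins are small in KSR23.

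The partners of these proteins in the contractile apparatus gave 6 genes lower and 1 higher of 24 tested, against 8.76% lower and 9.73% higher over all genes, with a median log2 fold change of -0.06. Lower were Myl9, the regulatory light chain of smooth muscle myosin (-0.84, adjusted p = 0.0199), Tpm2, a tropomyosin that lies along the actin filament (-0.83, adjusted p = 0.0263), Pdlim3, a Z-disc and actin-binding protein (-0.84, adjusted p = 0.00491), and Nexn, which encodes nexilin (-0.86, adjusted p = 0.0161). The others were Cald1, the actin-binding caldesmon (-0.72, adjusted p = 0.0448), and Hspb6, a small heat shock protein of muscle (-0.74, adjusted p = 0.0402). Pgm5, a protein of muscle adhesion sites, was higher (0.88, adjusted p = 0.0437). Myl6, the other light chain of smooth muscle myosin, had -0.59 and did not pass (adjusted p = 0.126).

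The groups did not overlap for 3 of the 24 genes, Pdlim3, Nexn and Hspb6, all lower in KSR23. Over all genes tested 14.4% did not overlap, 6.99% of them lower and 7.41% higher in KSR23, each as a share of all genes. Pdlim3 measured 170, 130, 129, 151 and 160 CPM in WT and 101, 80.7, 75.6, 86.2 and 71.2 CPM in KSR23. For Myl9 the values were 1296, 556, 753, 910 and 1206 CPM in WT and 574, 466, 599, 500.4 and 500.8 CPM in KSR23, and WT replicate 2 lay inside the KSR23 range, as it did for Acta2. On replicates 1 to 3 none of the 24 was called. With GC and length offsets 3 were called lower and 0 higher, namely Cald1 (-1.10, adjusted p = 0.00212), Nexn (-0.84, adjusted p = 0.0236) and Palld, the actin-bundling palladin (-1.03, adjusted p = 0.00919). The 7 calls became 2, 4, 1 and 1 without WT replicate 1, 3, 4 or 5, and 2, 2 and 1 without KSR23 replicate 2, 4 or 5.

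**Figure D4:**
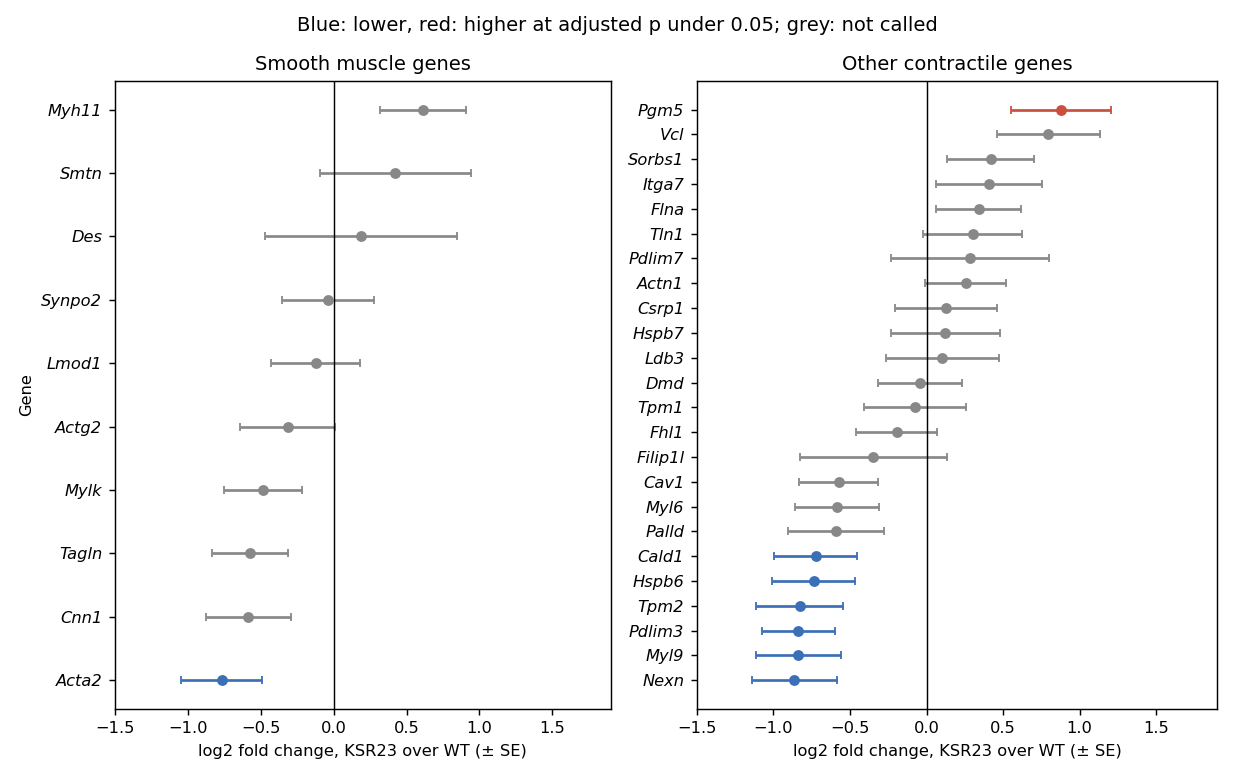
Log2 fold change (KSR23 over WT, point) with its SE (bar) for the 10 smooth muscle genes at the left and 24 other contractile genes at the right. Acta2 and 6 partners were called lower (blue), Pgm5 higher (red), and the grey genes were not called.

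Of 24 genes that start or stop contraction, 1 was higher and 2 were lower, against 18.5% called over all genes, and their median was -0.12. Atp2a2, the pump that returns calcium to the sarcoplasmic reticulum, was higher (0.77, adjusted p = 0.0313), but not with GC and length offsets (0.38, adjusted p = 0.421). Chrm3, the muscarinic receptor through which acetylcholine contracts gut muscle, was lower (-1.85, adjusted p = 0.0127) on 2 to 27 counts a library and not called with the quasi-likelihood test (adjusted p = 0.0516), and P2rx1, an ATP-gated channel, was lower (-0.96, adjusted p = 0.0156). The potassium channel genes Kcnmb1 and Kcnma1 had -0.18 and -0.93 and did not pass (adjusted p = 0.747 and 0.119). The 3 calls became 1 without WT replicate 1, 3, 4 or 5, and 0 on replicates 1 to 3.

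Among regulators of smooth muscle and gut mesenchyme, most of them transcription factors, 3 of the 15 tested were lower and none higher, against 8.76% lower over all genes, with a median of -0.69. Nkx2-3, a homeobox factor of the intestinal mesenchyme, measured 6.41 to 16.1 CPM in WT and 1.86 to 4.01 CPM in KSR23 without overlap (-1.47, adjusted p = 0.000892), but was not called with GC and length offsets (-1.11, adjusted p = 0.184). In that fit 4 of the list were called lower, Foxf1 (-1.19), Foxf2 (-0.99), Mef2c (-1.10) and Gli1 (-1.36), with a median of -0.91. Foxf1, a forkhead factor of the same tissue (-1.09, adjusted p = 0.0264), and Mef2c, a muscle factor (-0.80, adjusted p = 0.0310), were also lower. Srf and Myocd, the factor and cofactor named above, had 0.22 and 0.41 and did not pass (adjusted p = 0.678 and 0.510). Barx1 had no counts in any library, which allows up to 0.0427 to 0.119 CPM per library. The 3 calls became 0 on replicates 1 to 3, 1 without KSR23 replicate 2 or 5, and 5 without KSR23 replicate 3.

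Striated muscle genes were examined because desmin is also a protein of heart and skeletal muscle. Of 14 tested, 4 were lower and none higher, against 8.76% lower over all genes, with a median of -0.62. Csrp3 (muscle LIM protein) had 201 to 612 counts in WT and 3 to 11 in KSR23 (-6.45, adjusted p = 3.57e-27), and Actc1, the cardiac actin, 1.14 to 3.98 CPM in WT and 0.129 to 0.514 CPM in KSR23 (-2.84, adjusted p = 2.31e-07). Tnni1 (-2.52, adjusted p = 1.19e-05) and Myl1 (-1.60, adjusted p = 0.0148) were lower too. With GC and length offsets 3 of the list were called, and Myl1 was not (-1.23, adjusted p = 0.0795). Csrp3 and Actc1 were also called on replicates 1 to 3. Acta1, the skeletal actin, measured 5.79 to 8.49 CPM in WT and 3.39 to 7.63 CPM in KSR23 (-0.38, adjusted p = 0.454).

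Markers of other cells of the wall were set beside the muscle genes, as the share of a tissue in the RNA can move with them. Against 9.73% higher and 8.76% lower over all genes, epithelial genes had 4 higher and 0 lower of 14 (median 0.57), and their summed level was 3266 to 6345 CPM in WT and 6540 to 10555 CPM in KSR23, without overlap. Krt20, a keratin of mature enterocytes (2.22), Elf3 (1.52), Esrp1 (1.29) and Cdh1, E-cadherin (1.11), were the called genes, and Epcam had -0.44 with adjusted p = 0.686. On replicates 1 to 3 only Krt20 was called, and Cdh1 was not called with the quasi-likelihood test (adjusted p = 0.0572) or with GC and length offsets (adjusted p = 0.122). Leukocyte genes had 0 higher and 3 lower of 9 (Cd52 -1.25, Tyrobp -1.20 and Fcer1g -1.04), and the sums of the list, 701 to 879 CPM in WT and 513 to 688 CPM in KSR23, did not overlap. The transcripts of these 3 genes are short (514, 597 and 683 bases), and with GC and length offsets Tyrobp alone was called (-0.63, adjusted p = 0.0444), while Cd52 had -0.63 and Fcer1g -0.48 (adjusted p = 0.131 and 0.144). On replicates 1 to 3 none of the 9 was called. Ptprc and Laptm5, of the same list, had 0.03 and 0.10 and did not pass (adjusted p = 0.965 and 0.854).

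Calls in the mesenchymal and neural lists are to be read against the 18.5% of all genes. Pericyte genes, which share Acta2 with muscle, had 0 called of 8, with Rgs5 at -0.14 and Pdgfrb at 0.08 (adjusted p = 0.822 and 0.897). Fibroblast genes had 1 lower of 10 (Dcn, -1.10), with Col1a1 at 0.68 and Col1a2 at 0.21, and 2 were called without KSR23 replicate 3. The fibroblast sum was 1577 to 2200 CPM in WT and 1480 to 2121 CPM in KSR23. Endothelial genes had 2 lower of 9 (Emcn -1.20 and Cdh5 -0.97), with Pecam1 at 0.13, and 1 was called without replicate 4 of either group. Mesothelial genes had 1 higher of 7 (Upk1b, 1.29), with Msln at -0.13 and Upk3b at -0.27, and 0 with upper quartile factors. On replicates 1 to 3 none of the pericyte, fibroblast, endothelial or mesothelial genes was called. For the interstitial cells of Cajal, the pacemakers of the gut, 0 of 7 were called, with Kit at 0.83 and Ano1 at 0.63 (adjusted p = 0.0579 and 0.216). Of this list Kcnk3 had the lowest change (-1.03) and was called lower with GC and length offsets (-1.60, adjusted p = 0.0242), and 1 of the 7 was called without WT replicate 1 or without KSR23 replicate 1, 2 or 3.

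Enteric neurons had 1 higher and 1 lower of 11 (Ret 0.94 and Stmn2 -0.74), with Elavl4 at -0.64, and 0 or 1 of them was called when any 1 library was left out. Enteric glia had 1 higher and 2 lower of 8 (Erbb3 1.43, S100b -6.33 and Fabp7 -1.73), with Sox10 at 0.75. On replicates 1 to 3, 0 of the neuronal and 1 of the glial genes (S100b) were called. The smooth muscle genes summed to 2103 to 4340 CPM in WT and 2042 to 2786 CPM in KSR23, so their ranges overlapped. The sums of 4 other lists did not overlap, those of the epithelial and leukocyte lists, of the genes that start or stop contraction (512 to 602 CPM in WT and 606 to 683 CPM in KSR23) and of the regulators (164 to 247 and 124 to 143 CPM). In the contraction sum the broadly expressed Rhoa (147 and 181 CPM on average in WT and KSR23) and Ppp1cb (124 and 159 CPM) weighed most, and neither was called. The part of tissue composition in the level of any smooth muscle gene was not tested.

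**Figure D5:**
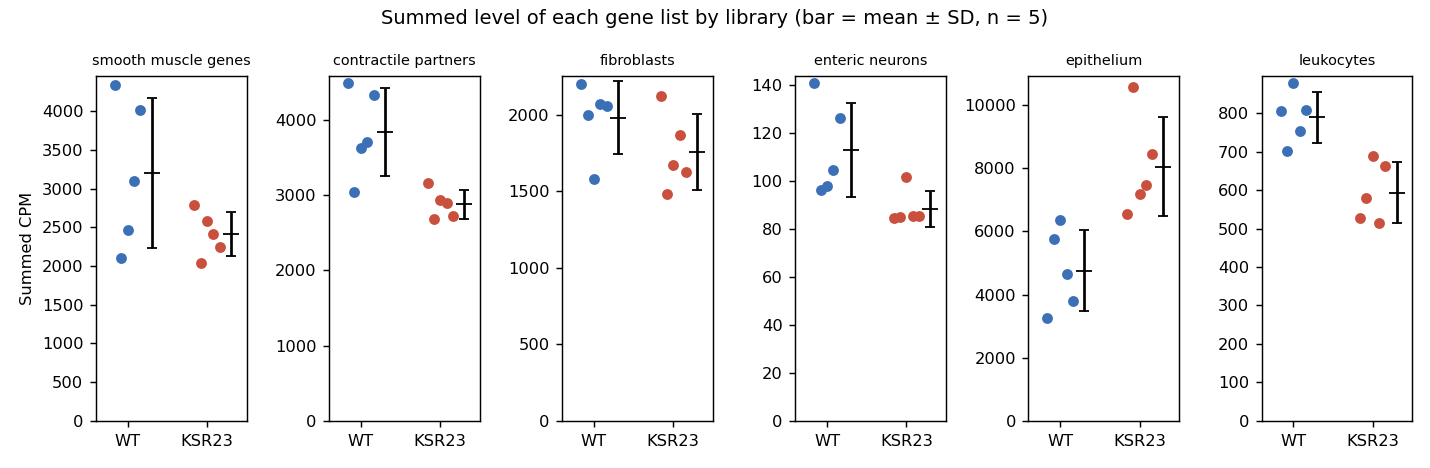
Summed CPM of the smooth muscle genes and of 5 other gene lists in each library, with the mean ± SD (n = 5) at the right of each group and every axis from 0. The smooth muscle sum ranges from 2103 to 4340 CPM in WT and 2042 to 2786 CPM in KSR23, and the epithelial sum is higher in all KSR23 libraries.

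Genes whose pattern within the groups was most like the mean of the 10 members were sought among 9727 other genes, by the correlation of log2 CPM after the group means were removed, over 10 libraries. That mean was not scaled for spread, so Des and Smtn (SD of log2 CPM 1.60 and 1.32 in KSR23) weighed most in it. Acta2 had r = 0.334 with the mean of the other 9 members, against 0.985 with Actg2. The genes named next are close to that mean and need not be close to each member. The closest were Hspb6 (r = 0.967) and Pdlim3 (r = 0.931), both of the contractile list, then Morn4 (r = 0.919), Eif2s3y (r = 0.863), Mfi2 (r = 0.858), Ablim1 (r = 0.845), Synm (r = 0.844), Uty (r = 0.841), Kdm5d (r = 0.840) and Ddx3y (r = 0.839). On replicates 1 to 3 alone (6 libraries) these r were 0.872 to 0.986. Synm encodes synemin, a partner of desmin. Of these 10, 4 are Y-linked (Eif2s3y, Uty, Kdm5d and Ddx3y). Ddx3y was at 43.8 and 26.1 CPM in KSR23 replicates 1 and 4 and at 0.0967 CPM or less in the other KSR23 libraries, and it was at 43.7 to 54.4 CPM in WT libraries except replicate 3, at 5.43 CPM. Members differed in how their levels lay beside Ddx3y. Cnn1 (140 and 124 CPM) and Des (186 and 107 CPM) were highest among the KSR23 libraries in replicates 1 and 4. WT replicate 3 was the lowest WT library for Myh11, Mylk and Synpo2. In contrast, KSR23 replicate 3 was the highest KSR23 library for Acta2, Actg2 and Myh11. WT replicate 2, at 46.1 CPM of Ddx3y, was the lowest WT library for Acta2, Actg2, Tagln and Cnn1. The labels give no sex, but the groups differed in Y-linked reads. In KSR23 replicates 2, 3 and 5 each of these 4 genes was at 0.161 CPM or less, while every WT library held at least 2.72 CPM of each. No fit took account of sex, and its part in any difference between the groups was not tested.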

How the data were processed

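The authors deposited counts of reads per gene symbol, 1 file per library. Per the labels and the study's methods, 100 pg of total RNA per library was primed with oligo-dT, amplified by PCR without molecular identifiers and sequenced as single reads, aligned to mm10 with TopHat2 2.1.0 and counted with HTSeq 0.6.1p1 in strict intersection mode. The floor of 3 counts covers counting error only, while the 95% intervals come from the SE of the fit and so include the spread between libraries. Reads with more than 1 alignment (8.62 to 17.1 M per library) entered no gene. None of the 10 genes shares a 75-base stretch, read on its own strand, with another annotated transcript.

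Counts of all 10 libraries were fitted in edgeR 4.0.16 (R 4.3.3) with TMM factors and a group term, and KSR23 was compared with WT by the likelihood ratio test, as in the study, over 17632 genes that reached 5 counts in some library. The study's filter may instead have asked for 5 counts in every library (13181 genes, 2899 called). P-values were adjusted by Benjamini-Hochberg. All 10 members passed this filter. CPM use TMM-scaled totals, and correlations used log2 CPM with a prior count of 2. The alternatives comprised edgeR's quasi-likelihood F test, DESeq2 1.42.0, other size factors and filters, replicates 1 to 3, omission of each library, a replicate block, and, chosen after the data were seen, GC and length offsets (GENCODE M21) and the quasi-likelihood test on replicates 1 to 3. The fits were tested on simulated counts. The members and gene lists were chosen with earlier results of these data known. The text names every member, the first 2 genes of each other list, up to 4 called genes of each with the largest change, and the 10 genes most like the members; Tpm2, Cald1, Palld, Foxf2, Gli1, Kcnk3, Barx1, Rhoa and Ppp1cb, beyond that limit, were named after their values were seen, and 2 genes that the rule names are not reported here.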

Additional observations from a re-analysis of the deposited data

Results flagged for a closer look

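In WT replicate 3 the log2 ratio of Myh11 to Tagln was -0.0697, far from the other 4 WT libraries, which lay between 0.49 and 0.55. This was 1 of 28 groups of 5 values examined, where chance alone would set about 1.4 apart (1 in 20). In KSR23 the same ratio, not on the log scale, was 2.86 to 3.32, against 0.953 to 1.47 in WT.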

How the results depend on the processing

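The 3261 genes called over the whole table became 579 on replicates 1 to 3, 140 there with the quasi-likelihood test, 461 there with GC and length offsets, 1722 with those offsets and the replicate block, and 2370 to 3802 when 1 library was left out. The called genes were 52.6% higher with TMM factors, 43.2% with library totals alone and 39.0% with upper quartile factors, which moved the median of all genes from 0.03 to -0.13. Of the members, 1 was called; 0 were called with the quasi-likelihood test, on replicates 1 to 3 with either test, with the replicate block, and with GC and length offsets on replicates 1 to 3 or with the block, and 0 to 1 when 1 library was left out. Same-numbered libraries deviated together for replicates 2, 4 and 5 (r = 0.406, 0.359 and 0.486) and oppositely for replicates 1 and 3 (r = -0.74 and -0.689), so the numbers were not taken to pair them. The replicate block called 2202 genes and 0 members. It called 1 gene each of the contractile, contraction, regulator and endothelial lists, and 0 of the neuronal and mesothelial lists. The adjusted p of Acta2 ran from 0.0113 to 0.808 over 23 alternatives. The median change of the members kept its sign in all 23 (-0.44 to -0.03), and the difference in their share of counts in all 13 (-0.12 to -0.06 percentage points). Of 230 single values, 21 changed sign, none of them past the threshold in the main comparison. With GC and length offsets these were Des -0.17 and Smtn -0.0373, on replicates 1 to 3 with those offsets Actg2 0.15, Des -0.22 and Smtn -0.18, and with those offsets and the block Actg2 0.11, Des -0.53 and Smtn -0.0851. The replicate block alone gave Des -0.31 and Synpo2 0.00497, and replicates 1 to 3 gave Lmod1 0.0459 and Synpo2 0.0175 with the likelihood ratio test and 0.0466 and 0.0175 with the quasi-likelihood test. Leaving out 1 library gave -0.44 to 0.46 for Des, -0.23 to 0.0616 for Lmod1 and -0.19 to 0.16 for Synpo2. The causes were not tested.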
